A study of Mus musculus with 14 samples.

Results

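Granule protease genes were followed through cultured mouse blood progenitors: the tryptases Tpsb2 and Tpsab1, the chymases Cma1, Mcpt1, Mcpt2 and Mcpt4, the basophil protease Mcpt8, the carboxypeptidase Cpa3, and granzyme B (Gzmb). They are 9 genes taken by name from a larger family, matched to the symbols of the array's platform annotation, and measured relatives such as Ctsg and Tpsg1 are described beside them. All 9 were found, each with 1 probe set, among 19505 distinct symbols measured. Mast cells and basophils store serine proteases and carboxypeptidase A at high concentration in secretory granules, bound to serglycin and its sulfated sugar chains, and release them when the high-affinity IgE receptor is crosslinked. Tryptases cleave after basic residues and chymases after aromatic ones, and both families act on matrix, toxins and cell surface receptors. Granzyme B, which cleaves after aspartate and is best known as the killing protease of cytotoxic lymphocytes, is also made by mouse mast cells and belongs to the same chromosomal cluster as the chymases.

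The study asked how N-Myc, and mitochondrial DNA mutations that build up with age, alter transcription in hematopoietic progenitor cells (HPCs), which are bone marrow cells depleted of mature lineages. Donor mice carried a mutant allele of Polg, which encodes the polymerase that copies mitochondrial DNA, on neither chromosome (WT, Polgwt/wt), on a single one (Het, Polgwt/mut) or on both (Hom, Polgmut/mut). All cells were magnetically sorted, cultured for 48 h and then spun onto retronectin-bound retrovirus. The control vector (Ctrl) was MSCV-IRES-YFP, and the other (NMyc) was MSCV-NMyc-IRES-YFP, so every group carried the yellow fluorescent reporter. With Ctrl there were 3 arrays each of WT and Het and 2 of Hom, and with NMyc 2 of each genotype, which makes 8 Ctrl and 6 NMyc arrays and limits the precision. The labels give no mouse strain, sex or age, no content of the medium and no time of harvest after transduction. They call the arrays biological replicates without naming the animals. A p-value here sets a difference against the spread of such samples, pooled over the 6 groups. Whether that is a spread between animals is not stated.

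Each value is the authors' deposited log2 level of a probe set, so a difference of 1 is a doubling. Adjusted p-values are from limma with the Benjamini-Hochberg correction for 22206 probe sets, and a value under 0.05 is a call. The 5222 negative control sets of each array served as its background. A probe set at or under their median, which lay between 4.391 and 4.866, has no measured level there and only a bound is given. For the bound, such NMyc arrays were put at that median, and Ctrl arrays kept their values. The 95th percentile of the negative sets, between 7.146 and 8.004, was a stricter mark. Background tended to be lower with NMyc, with medians of 4.391 to 4.698, against 4.47 to 4.866 with Ctrl. The part of that shift in the falls of weak genes was not tested. Mycn, the transduced gene, read 12.15 to 12.38 in the NMyc arrays and 7.43 to 7.76 in the WT-Ctrl and Het-Ctrl arrays. In Hom-Ctrl it read 9.77 in replicate 1 and 7.61 in replicate 2, so the library labelled Hom-Ctrl replicate 1 stands apart, and the main results on Hom are also given without it. Of 6 stem and progenitor markers, Cd34 passed the stricter mark in all 14 arrays, Meis1 in 6, and Flt3, Slamf1, Procr and Hlf in 0. Granule genes of maturing neutrophils were high in the same arrays, with Elane at 12.38 to 13.21 and Ngp at 12.64 to 13.47.

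With NMyc, 7 of the 9 protease genes fell and 0 rose on the average over the genotypes, where 15.5% of all probe sets fell and 18.2% rose. Their median difference was -0.68 on the log2 scale (that of Cpa3, which is measured in every array), beside -0.02 over all probe sets. In 6 of 9, every NMyc array lay below every Ctrl array, a pattern seen in 6.58% of probe sets. In Mcpt4 the lowest Ctrl array was itself under background, so 5 genes, Tpsb2, Gzmb, Cma1, Cpa3 and Mcpt8, had a measured separation. The falls spanned a wide range of sizes. Tpsb2 (-3.77), Gzmb (-3.20) and Cma1 (-1.81) changed most among those measured throughout, and Cpa3 (-0.68) and Mcpt8 (-0.51) changed less. Mcpt4 fell to background and Tpsab1 fell by at least 1.43-fold. Mcpt2 missed the threshold, and Mcpt1 was not above background in any array. In bulk RNA such as this, fewer cells of a type and less RNA per cell cannot be told apart.

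**Figure D1:**
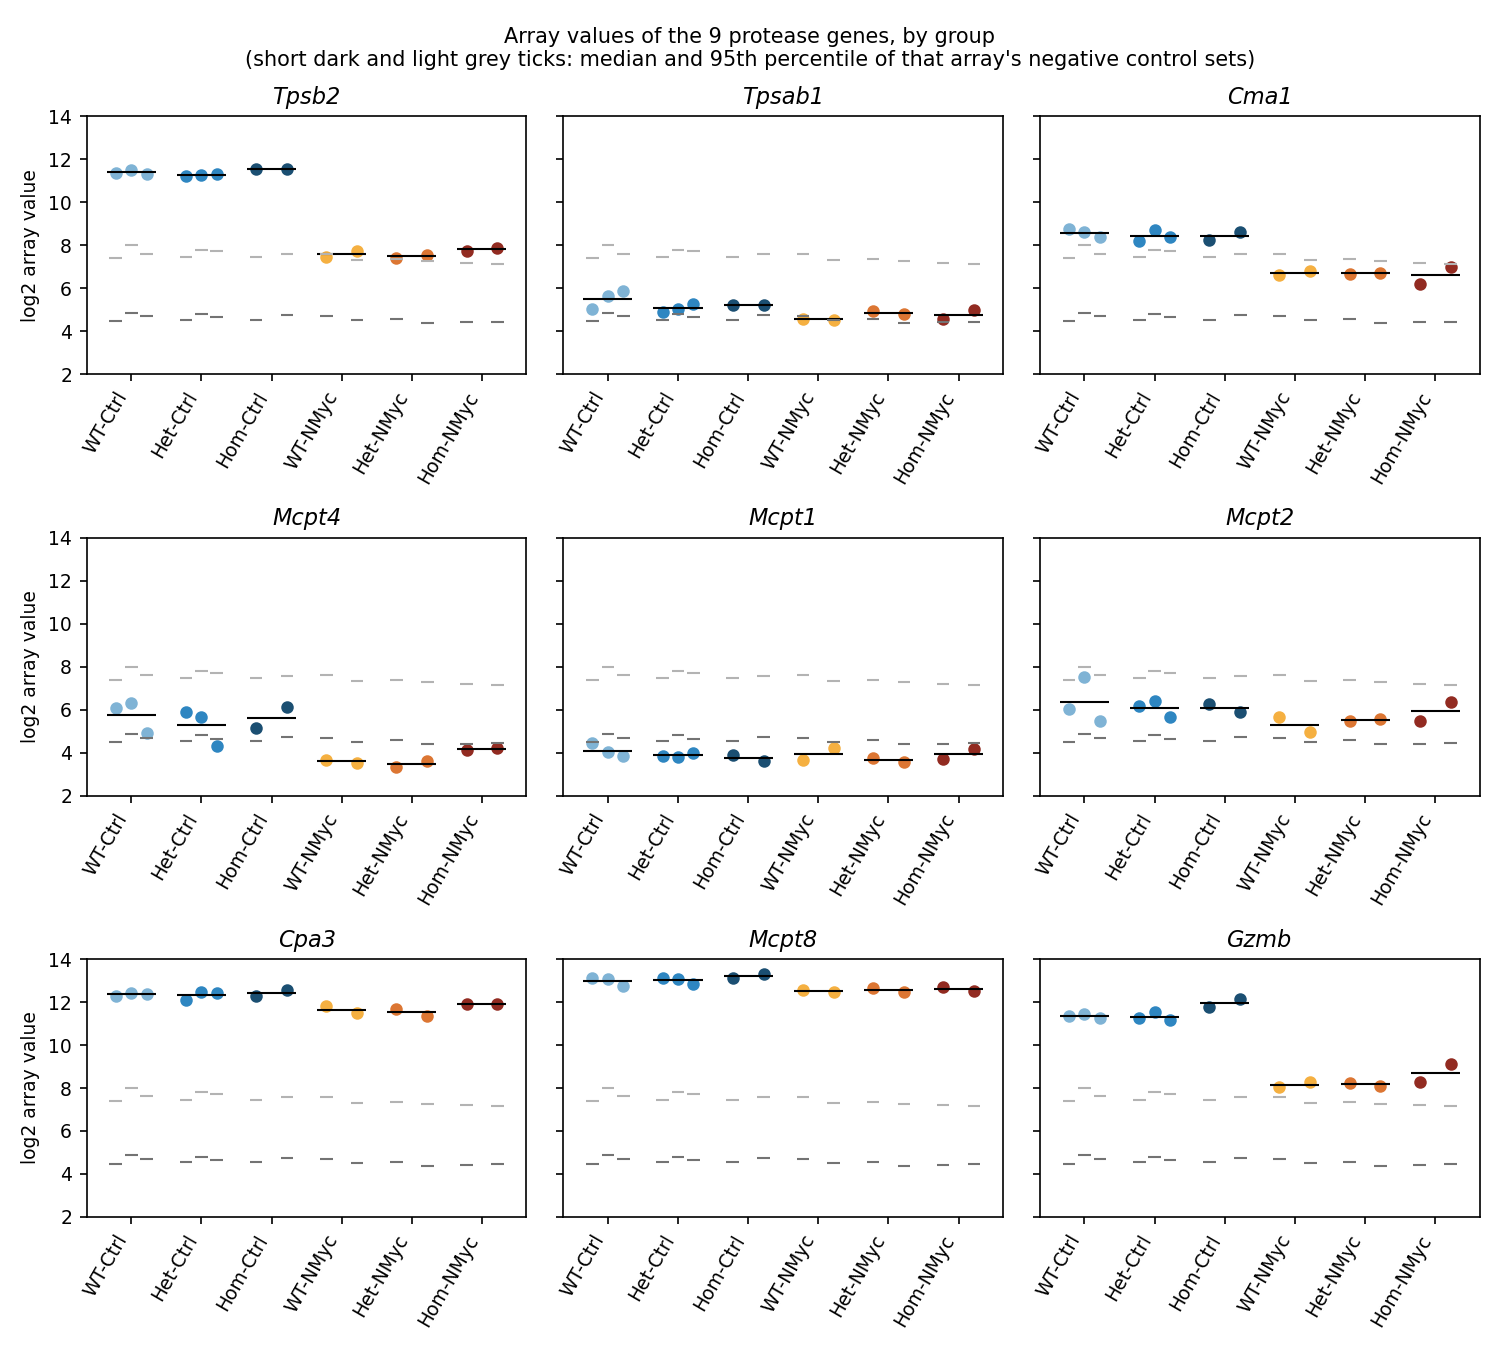
Each panel shows 1 gene, with the log2 array value on the vertical axis and the 6 groups along the horizontal. Points are arrays, long lines are group means, and the short dark and light ticks beside each point mark the median and the 95th percentile of that array's negative control sets. Tpsb2, Gzmb and Cma1 separate the vectors by more than 1 log2 unit, Cpa3 and Mcpt8 by less, Mcpt4 lies under the dark ticks in all NMyc arrays, and Mcpt1 in all 14 arrays.

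Tpsb2 encodes mouse mast cell protease 6, the main tetrameric tryptase of connective tissue mast cells. With Ctrl it read 11.37, 11.49 and 11.30 in WT, 11.22, 11.29 and 11.32 in Het, and 11.53 and 11.55 in Hom. With NMyc it read 7.46 and 7.72 in WT, 7.42 and 7.55 in Het, and 7.74 and 7.87 in Hom. The lowest Ctrl array was 3.35 above the highest NMyc array, and 5 of the 6 NMyc arrays still lay above the 95th percentile of the negative sets. The averaged difference was -3.77 (SE 0.0815, 95% interval -3.95 to -3.60), a 13.7-fold fall with adjusted p = 1.61e-13. It was the 5th largest fall of 22206 probe sets. Within genotypes the difference was -3.80 in WT, -3.79 in Het and -3.73 in Hom (-3.74 without Hom-Ctrl replicate 1), so the fall was of nearly one size throughout. The spread among the 8 Ctrl arrays was 0.123 (SD), far smaller than the change.

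Tpsab1, the gene of mouse mast cell protease 7, lies beside Tpsb2 and is listed as a transcribed pseudogene in the RefSeq annotation of GRCm38.p6, which is the C57BL/6J genome. Its Ctrl values were 5.05, 5.63 and 5.87 in WT, 4.91, 5.03 and 5.25 in Het, and 5.20 and 5.24 in Hom. The NMyc values were 4.57 and 4.52 in WT, 4.95 and 4.79 in Het, and 4.56 and 4.97 in Hom. Ctrl and NMyc arrays overlapped, no array passed the 95th percentile of the negative sets, and WT-NMyc replicate 1 was not above their median. Tpsab1 lay above 55.6% to 77% of the negative sets in Ctrl arrays and above 46.6% to 64.2% in NMyc arrays. The averaged fall was at least 1.43-fold (adjusted p = 0.00252), with a fitted difference of -0.54. Within genotypes it passed the test in WT (at least 1.88-fold, adjusted p = 0.00315) and not in Het (-0.19, adjusted p = 0.618) or Hom (-0.45, adjusted p = 0.206, and -0.47 without Hom-Ctrl replicate 1). The difference between the Het and WT effects was 0.78 (95% interval 0.154 to 1.40), with an unadjusted p of 0.0178 and an adjusted p of 1, so unequal effects were not called. Tpsb2 and Tpsab1 are close relatives, and how far either probe set also binds the other transcript was not tested.

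Around these tryptases on chromosome 17, in gene order, the neighbours Prss29, Tpsg1 and Cacna1h were also measured. Tpsg1, which encodes the membrane-anchored gamma tryptase, fell by 1.53 (SE 0.115, adjusted p = 6e-08). Cacna1h, a calcium channel gene on its far side, fell by 0.32 (adjusted p = 0.0109). Prss29, a tryptase relative of the uterus, differed by -0.13 (adjusted p = 0.359). Of 9 tryptase relatives measured, 2 fell and 0 rose, Tpsg1 and Prss34 (-0.46), with a median of -0.12. Over all probe sets 15.5% fell and 18.2% rose, and these shares also stand beside the averaged list counts below. Of the 9, 6 passed the 95th percentile of the negative sets in no array. Prss34, mouse mast cell protease 11, is the tryptase of basophils.

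The chymases cut after aromatic residues. Cma1 encodes mouse mast cell protease 5, which in mice has turned to an elastase-like specificity. It read 8.74, 8.61 and 8.37 in WT-Ctrl, 8.20, 8.69 and 8.38 in Het-Ctrl, and 8.26 and 8.64 in Hom-Ctrl. With NMyc it read 6.60 and 6.82 in WT, 6.65 and 6.72 in Het, and 6.21 and 7.01 in Hom. The groups did not overlap and were 1.19 apart at the nearest. All 8 Ctrl arrays passed the 95th percentile of the negative sets and 0 of 6 NMyc arrays did. The averaged difference was -1.81 (SE 0.131, 95% interval -2.09 to -1.54), a 3.52-fold fall with adjusted p = 4.17e-08. The genotypes gave -1.87 in WT, -1.74 in Het and -1.84 in Hom (-2.03 without Hom-Ctrl replicate 1).

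Mcpt4 encodes the beta-chymase of connective tissue mast cells, the closest mouse counterpart of human chymase in activity. Its Ctrl values were 6.06, 6.29 and 4.92 in WT, 5.87, 5.66 and 4.30 in Het, and 5.13 and 6.10 in Hom. The NMyc values were 3.66 and 3.51 in WT, 3.31 and 3.59 in Het, and 4.12 and 4.20 in Hom. Every NMyc array was under the median of its negative sets, and so was Het-Ctrl replicate 3, while the other 7 Ctrl arrays were above it. Replicate 3 of WT-Ctrl and of Het-Ctrl, the arrays of the third run of sample codes, were the lowest of the Ctrl arrays. Het-Ctrl replicate 3 kept its value of 4.30 in the averaged and Het bounds. The averaged fall was at least 2.07-fold (fitted difference -1.82, SE 0.254, adjusted p = 3.13e-05). Within genotypes it was at least 2.23-fold in WT, 1.74-fold in Het and 2.28-fold in Hom, with adjusted p = 0.00174, 0.00605 and 0.0421. Between arrays of the same code run it was at least 3.01-fold in WT, 2.13-fold in Het and 3.25-fold in Hom within run 2, and at least 1.34-fold in WT within run 3. In Het within run 3 both arrays were under background, so no fold is given.

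Mcpt1 and Mcpt2 encode the chymases of mucosal mast cells, which line the gut during worm infection. Mcpt1 read 3.55 to 4.43 and was under the median of the negative sets in 14 of 14 arrays, so no change can be given. Mcpt2 read 6.02, 7.54 and 5.49 in WT-Ctrl, 6.16, 6.40 and 5.66 in Het-Ctrl, and 6.25 and 5.87 in Hom-Ctrl. Its NMyc values were 5.64 and 4.94 in WT, 5.46 and 5.57 in Het, and 5.47 and 6.36 in Hom. The groups overlapped, and WT-Ctrl replicate 2 stood well above the rest. The averaged difference was -0.59 (95% interval -1.14 to -0.0286), with an unadjusted p of 0.0406 and a limma adjusted p of 0.103, so Mcpt2 was not called, and the interval leaves room for a fall of more than 1 log2 unit. Without WT-Ctrl replicate 2 the averaged difference was -0.39 (adjusted p = 0.114), and that in WT went from -1.06 to -0.46. Without WT-Ctrl replicate 3 the averaged difference was -0.73 and passed (adjusted p = 0.0226).

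The start regions of Mcpt1 and Mcpt4 are shown because Mcpt4 was above background in most Ctrl arrays and Mcpt1 in none, while their promoters are nearly the same. The sequences are the 120 bases before the RefSeq start (GRCm38.p6), at chr14:56017844-56017963 on the plus strand for Mcpt1 and chr14:56062311-56062430 on the minus strand for Mcpt4. The same stretch is given for Cma1, chr14:55944676-55944795, Gzmb, chr14:56262335-56262454, and Cpa3, chr3:20242182-20242301, all on the minus strand. Capitals mark the 3 kinds of motif found in these stretches on either strand: GATA sites (AGATAA or AGATAG or TGATAA or TGATAG), the RUNX core TGTGGT and the TATA box TATAAA. In Cma1 the letters CTATCT, like ACCACA in Cpa3, are such motifs read on the other strand.
Mcpt1: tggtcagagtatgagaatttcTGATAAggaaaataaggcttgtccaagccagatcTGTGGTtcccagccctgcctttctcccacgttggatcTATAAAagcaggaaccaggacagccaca
Mcpt4: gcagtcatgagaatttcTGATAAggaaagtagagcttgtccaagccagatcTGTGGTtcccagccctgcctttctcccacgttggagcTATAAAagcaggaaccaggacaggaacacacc
Cma1: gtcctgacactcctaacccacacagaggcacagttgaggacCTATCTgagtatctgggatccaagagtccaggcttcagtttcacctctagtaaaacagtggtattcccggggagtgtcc
Gzmb: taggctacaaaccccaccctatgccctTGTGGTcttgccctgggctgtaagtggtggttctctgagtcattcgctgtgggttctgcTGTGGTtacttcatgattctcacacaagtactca
Cpa3: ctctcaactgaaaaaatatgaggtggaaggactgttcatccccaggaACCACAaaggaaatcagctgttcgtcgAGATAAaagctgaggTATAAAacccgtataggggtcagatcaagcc

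Mcpt1 and Mcpt4 matched at 96 of 100 bases once shifted by 4, and the GATA, RUNX and TATA motifs stood in the same order in both. Mcpt4 was above background in 7 of 8 Ctrl arrays and Mcpt1 in 0, and how far the probes of each respond to their transcript was not tested. Over the 250 bases before the start, 4 of the 6 members with a promoter in the table held a GATA site, against 26.5% of 32851 windows. A RUNX core was found in 5 of 6 (14% of windows) and a TATA box in 3 of 6 (12.4%). Mcpt1 and Mcpt4 each hold all of these motifs and are counted separately though nearly alike. These counts therefore do not rest on 6 independent sequences. The E-box CACGTG, which MYC proteins bind, was found in 0 of 6 (6.02% of windows), and CATGTG, an E-box bound by MITF, in 0 of 6 (12.3%). These matches describe letters only, and absence of a motif here says nothing of binding elsewhere.

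Gzmb sits at the far end of the same cluster on chromosome 14. With Ctrl it read 11.36, 11.44 and 11.25 in WT, 11.24, 11.52 and 11.18 in Het, and 11.79 and 12.13 in Hom. With NMyc it read 8.05 and 8.26 in WT, 8.24 and 8.10 in Het, and 8.26 and 9.13 in Hom. The vectors were 2.05 apart at the nearest arrays, and all 14 arrays passed the 95th percentile of the negative sets. The averaged difference was -3.20 (SE 0.126, 95% interval -3.47 to -2.93), a 9.2-fold fall with adjusted p = 2.61e-10 and the 10th largest of 22206. It was -3.20 in WT, -3.14 in Het and -3.27 in Hom (-3.43 without Hom-Ctrl replicate 1).

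The Hom arrays were the highest for Gzmb with either vector. Hom-Ctrl lay 0.61 above WT-Ctrl (SE 0.211, adjusted p = 0.133) and 0.65 above Het-Ctrl (adjusted p = 0.132), and the arrays did not overlap. Without Hom-Ctrl replicate 1 these differences were 0.78 (adjusted p = 0.143) and 0.82 (adjusted p = 0.138). Hom-NMyc lay 0.54 above WT-NMyc (adjusted p = 0.557) and 0.52 above Het-NMyc (adjusted p = 0.978), where replicate 2 of Hom-NMyc, at 9.13, was the highest and replicate 1, at 8.26, was level with WT-NMyc replicate 2. None of these 4 differences was called. A contrast added after these values were seen, Hom minus the mean of WT and Het averaged over the vectors, gave 0.58 (SE 0.137, 95% interval 0.288 to 0.873, adjusted p = 0.0309), where 3.84% of probe sets were called. It lost the call in 8 of 22 alternatives, including without Hom-Ctrl replicate 2 (0.50, adjusted p = 0.184) and without Hom-NMyc replicate 2 (0.36, adjusted p = 0.191). Without Hom-Ctrl replicate 1 it was 0.67 (adjusted p = 0.0319). The other 8 members were not called in that contrast.

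Cpa3 encodes carboxypeptidase A3, which trims C-terminal aromatic residues and degrades snake venom peptides, and it is transcribed early in the mast cell lineage. It read 12.30, 12.40 and 12.38 in WT-Ctrl, 12.08, 12.47 and 12.44 in Het-Ctrl, and 12.30 and 12.56 in Hom-Ctrl. With NMyc it read 11.81 and 11.48 in WT, 11.69 and 11.37 in Het, and 11.91 and 11.92 in Hom. The groups did not overlap, by a margin of 0.162. The averaged difference was -0.68 (SE 0.0991), a 1.6-fold fall with adjusted p = 4.83e-05. It was called in WT (-0.71, adjusted p = 0.00581) and Het (-0.80, adjusted p = 0.00271) and not in Hom (-0.52, adjusted p = 0.0622). Without Hom-Ctrl replicate 1 the Hom difference was -0.65 (adjusted p = 0.0785), and without Het-Ctrl replicate 1 it passed (adjusted p = 0.0481). The WT call was lost without WT-NMyc replicate 2 (adjusted p = 0.119) and the Het call without Het-NMyc replicate 2 (adjusted p = 0.0653). On chromosome 3 its neighbour Gyg, the glycogenin gene, fell by 0.89 (adjusted p = 7.41e-06), and Hltf on the far side of Gyg differed by -0.13 (adjusted p = 0.498).

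Mcpt8 encodes a protease that marks basophils among mouse blood cells. It read 13.10, 13.09 and 12.77 in WT-Ctrl, 13.10, 13.08 and 12.85 in Het-Ctrl, and 13.12 and 13.30 in Hom-Ctrl. The NMyc values were 12.54 and 12.46 in WT, 12.68 and 12.48 in Het, and 12.68 and 12.54 in Hom. All NMyc arrays were below all Ctrl arrays, the nearest by 0.0894. The averaged difference was -0.51 (SE 0.0911), a 1.42-fold fall with adjusted p = 0.000331. Within genotypes it was -0.49 in WT (adjusted p = 0.0335), -0.43 in Het (adjusted p = 0.0631) and -0.60 in Hom (adjusted p = 0.0198). Without Hom-Ctrl replicate 1 the Hom difference was -0.69 (adjusted p = 0.0446). The call was lost without any 1 of WT-Ctrl replicates 1 and 2 and WT-NMyc replicates 1 and 2 in WT (adjusted p = 0.091 to 0.204), and in Hom without Hom-Ctrl replicate 2 or either Hom-NMyc array (adjusted p = 0.0585 to 0.153). The Het difference passed without WT-Ctrl replicate 3 (adjusted p = 0.0443) or Het-Ctrl replicate 3 (0.0472). The array maxima were 13.2 to 13.47 and the 99th percentile of all values was 11.85 to 11.93, so Mcpt8 in every array, and Cpa3 in all Ctrl arrays, read above nearly all other probe sets. How far the scale is compressed there was not tested.

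**Figure D2:**
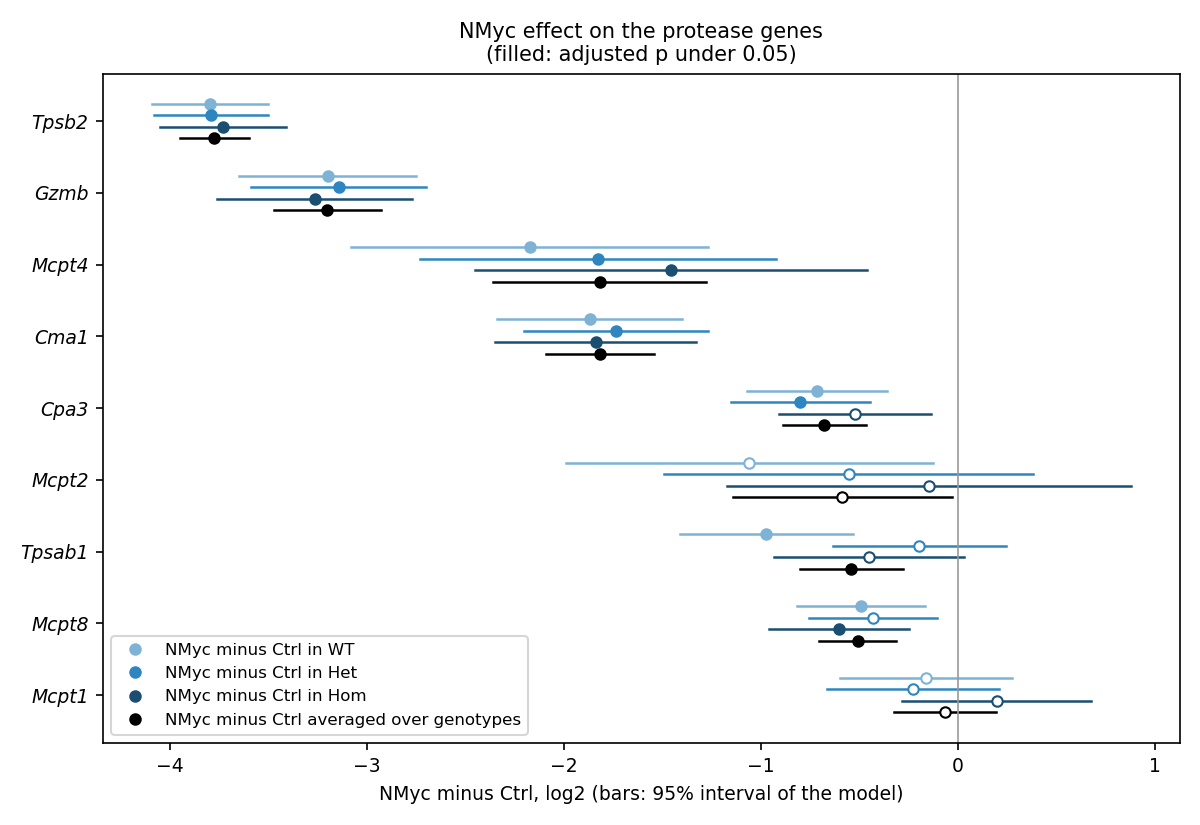
For each protease gene the horizontal axis gives NMyc minus Ctrl on the log2 scale, within WT, Het and Hom and averaged over them, with the model's 95% interval as a bar and filled points where the adjusted p was under 0.05. Tpsb2 (-3.77 averaged) and Gzmb (-3.20) have narrow intervals far from 0 in every genotype, and the Mcpt2 intervals are the widest. For Mcpt4, Mcpt1 and Tpsab1 in WT, the points include arrays under background and are not measured changes in size.

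Within WT, 7 of the 9 genes fell (9.05% of probe sets fell), within Het 5 (8%) and within Hom 5 (7.01%). Tpsb2, Gzmb, Cma1 and Mcpt4 were called in all 3 genotypes. The count in Hom was 3 without Hom-Ctrl replicate 2, Hom-NMyc replicate 1 or Hom-NMyc replicate 2, and 5 without Hom-Ctrl replicate 1. For Mcpt4 in Hom, the adjusted p rose to 0.284 without Hom-Ctrl replicate 2, 0.159 without Hom-NMyc replicate 1 and 0.147 without replicate 2, and it was 0.035 without Hom-Ctrl replicate 1. It was 0.0528 to 0.0533 without any 1 of the WT-NMyc and Het-NMyc arrays, which enter the shared estimate of the spread. In Het, Mcpt4 lost the call without Het-NMyc replicate 1 (adjusted p = 0.0662).

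Compared pair by pair, 0 of the 9 genes were called between genotypes. Some intervals left room for sizeable differences, as for Gzmb in Hom-Ctrl minus WT-Ctrl (95% interval 0.162 to 1.06). With Ctrl, limma called 0 members between Het and WT (0% of all probe sets), 0 between Hom and WT (3.91%) and 0 between Hom and Het (2.4%). At an unadjusted p under 0.05, 1 member passed in each: Tpsab1 between Het and WT, and Gzmb in the other comparisons. The shares of all probe sets passing there were 4.21% for Het against WT, 17% for Hom against WT and 14.9% for Hom against Het. With NMyc, 0 members and 0% of probe sets were called between any pair of genotypes. Unadjusted, 0 members passed for Het against WT (2.59% of probe sets) and 1 for Hom against WT, Gzmb (8.43%). For Hom against Het 2 did, Tpsb2 and Gzmb (4.92%). The NMyc effect was called as different between genotypes in 0 members. Shares of probe sets called were 0% for Het against WT, 0.0811% for Hom against WT and 0.0315% for Hom against Het. Unadjusted, 1, 0 and 0 members passed in that order, where 3.29%, 8.54% and 6.92% of probe sets did. The difference between the effects in Hom and WT was 0.06 for Tpsb2 (95% interval -0.368 to 0.495), -0.07 for Gzmb (-0.732 to 0.597) and 0.03 for Cma1 (-0.662 to 0.724). For Mcpt2 the interval (-0.47 to 2.30) is too wide to speak of like effects, and for Mcpt4, under background with NMyc, no difference of effects is given.

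Code runs, groups of consecutive sample codes that the labels do not call batches, split the arrays. The NMyc arrays fall in run 2 (replicate 1) and run 3 (replicate 2). Ctrl arrays of replicate 2 share run 2 with them, and those of replicate 3, which Hom lacks, share run 3. Within runs, Tpsb2 differed by -4.03 and -3.58 in WT, -3.87 and -3.78 in Het, and -3.81 in Hom in run 2. Gzmb differed by -3.40 and -2.996 in WT, -3.28 and -3.08 in Het, and -3.87 in Hom. Cma1, Cpa3, Mcpt8, Mcpt2 and Tpsab1 were also lower with NMyc in all 5 such pairs of arrays, and Mcpt4 in the 4 pairs whose Ctrl array was above background. The smallest differences were -0.08 for Tpsab1 in Het in run 2 and -0.09 for Mcpt2 in Het in run 3. The share of all probe sets lower in all 5 pairs was not counted. With the code run as a block, 7 members were called on average, 7 in WT, 6 in Het and 6 in Hom. Mcpt4 in Hom lost the call (adjusted p = 0.118), while Mcpt8 in Het (-0.40, adjusted p = 0.0453), Cpa3 in Hom (-0.595, adjusted p = 0.0257) and Tpsab1 in Hom (-0.68, adjusted p = 0.036) gained it.

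The chymase and granzyme cluster was read in gene order to see how local the change was. From one end it holds Cma1, Cma2, Mcpt1, Mcpt2, Mcpt9, Mcpt4, Mcpt8, Ctsg, Gzmg, Gzmn, Gzmf, Gzmc and Gzmb among the genes measured. Ctsg, the gene of cathepsin G, a granule protease of neutrophil and monocyte precursors, lies between Mcpt8 and the granzymes. It passed the stricter background mark in 14 arrays and differed by 0.07 (adjusted p = 0.573), while Mcpt8 on one side and Gzmb farther along fell. Gzmc, next to Gzmb, was not called (adjusted p = 0.143) and was above the median of the negative sets in only 2 arrays. Outside the cluster, Sdr39u1 beside Cma1 rose by 0.83 (adjusted p = 2.66e-06) and Khnyn beyond it fell by 1.13 (adjusted p = 1.89e-06), and Atp12a beyond Gzmb, above background in 5 arrays, was not called (adjusted p = 0.886). Of 10 chymase and granzyme relatives that were not members, 0 rose and 0 fell by limma, with a median of -0.02. At the unadjusted level 1 of them was under 0.05, Gzmm (-0.26), where 40.9% of all probe sets were. Of the 10, Ctsg passed the 95th percentile of the negative sets in all 14 arrays and the other 9 in 0.

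**Figure D3:**
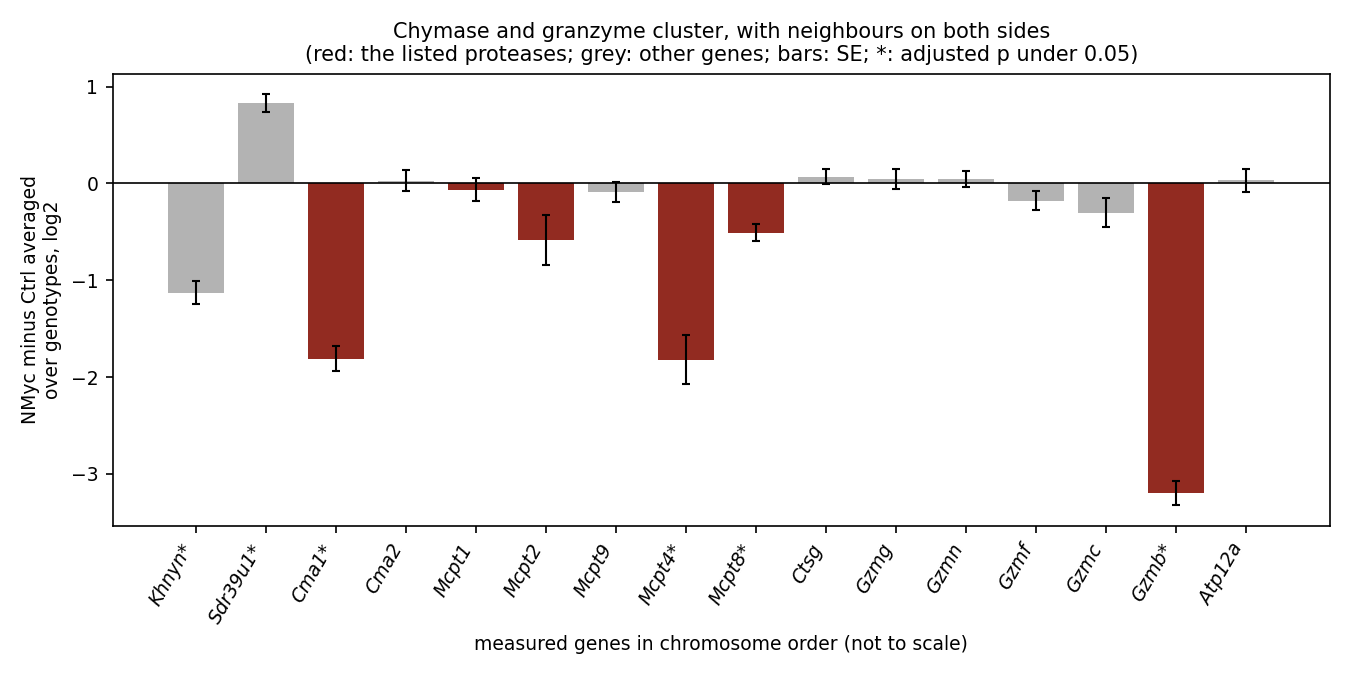
Bars give NMyc minus Ctrl averaged over the genotypes on the log2 scale, with the SE, for the measured genes of the chymase and granzyme cluster in chromosome order (not to scale) and the nearest genes outside it. Red bars are the listed proteases, grey bars other genes, and an asterisk marks an adjusted p under 0.05. Falls at Cma1, Mcpt4 and Gzmb alternate with genes that were not called. Of these, only Ctsg (0.07) read above the 95th percentile of the negative sets in any array. The bars of Mcpt1, Mcpt9 and Gzmg rest on values under background in all 14 arrays, and that of Mcpt4 on NMyc values under it.

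Genes for the storage and maturing of these proteases were called in both directions. Granule proteases are packed on serglycin (Srgn), whose heparin chains are built by exostosins and sulfotransferases. Chymases and granzymes among them are activated by the peptidase cathepsin C (Ctsc). Of 11 such genes measured, 4 rose and 1 fell, with a median of 0.15. Extl3 rose by 0.97 (SE 0.12, adjusted p = 8.66e-06), Hs2st1 by 0.81 (adjusted p = 3.84e-06), Hs6st1 by 0.37 (adjusted p = 0.0108) and Ndst2, the sulfotransferase that mast cell heparin needs, by 0.34 (adjusted p = 0.011). Xylt1, which starts the sugar chains, fell by 0.39 (adjusted p = 0.0124). Srgn itself differed by -0.24 (adjusted p = 0.0532) and Ctsc by -0.19 (adjusted p = 0.114), so neither was called. Over all alternatives there were 1 to 4 falls (4 when replicate numbers formed a block, 3 under a trended prior) and 2 to 4 rises. Falls were 2 without Hom-Ctrl replicate 1, WT-Ctrl replicate 3 or Het-Ctrl replicate 3, and rises were 2 without Het-NMyc replicate 1.

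Other granule contents and the release machinery fell in part. Of 7 genes for amine and lipid mediators, 4 fell and 0 rose, with a median of -0.39. They were Slc18a2, the vesicular monoamine transporter (-1.32), Tph1, which starts serotonin synthesis (-1.31), Alox5ap, which presents arachidonate for leukotrienes (-0.64), and Hdc, which makes histamine (-0.39, adjusted p = 0.0421). Of 13 genes for granule traffic and fusion, 7 fell and 0 rose, with a median of -0.33. The largest were Stx11 (-1.77), a syntaxin of cytotoxic granules, Rab27b (-1.15), a small GTPase of mast cell degranulation, Lyst (-0.89), and Snap23 (-0.89), a partner in mast cell exocytosis. Prf1, the perforin that lets granzyme B into target cells, differed by 0.10 (adjusted p = 0.694).

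Genes that restrain or receive these proteases were few. Of 7 protease inhibitors, 1 rose and 2 fell, with a median of -0.20. Serpinb9b, above background in 13 of 14 arrays, rose by 0.44 (adjusted p = 0.00415), and Serpinb6a fell by 0.98 (adjusted p = 1.29e-06). The other called lower, Serpinb6b (adjusted p = 0.000824), was above background in 3 Ctrl and 0 NMyc arrays, so no size is given. The falls numbered 1 with the filter on low values and 3 without Het-NMyc replicate 1 or WT-Ctrl replicate 3, and the rises 2 without Het-Ctrl replicate 3. Serpinb9, the inhibitor of granzyme B, differed by 0.19 (adjusted p = 0.333). Of 3 substrates and receptors measured, F2r, which encodes a thrombin receptor, fell by 1.55, and Bid, a death protein that granzyme B cleaves, rose by 0.80.

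Receptors and regulators of mast cells were also called in both directions. Of 14 measured, 1 rose and 4 fell, with a median of -0.12, and the mean log2 value of the list was 8.38 to 8.77 in Ctrl and 8.39 to 8.61 in NMyc arrays, so the vectors overlapped. Ms4a2, the beta chain of the IgE receptor, rose by 0.83 on average (SE 0.105, adjusted p = 1.1e-05). Its arrays overlapped between vectors, at 8.996 to 10.58 with Ctrl and 9.987 to 10.8 with NMyc. Within Hom 0 of the 14 genes were called higher, so that rise was not called there, beside 1 within WT and 1 within Het. Fcer1g and Fcer1a, partners of Ms4a2, fell by 0.59 (adjusted p = 1.86e-05) and 0.30 (adjusted p = 0.0228). Csf2rb fell by 0.50, and Kit, the stem cell factor receptor, by 0.30 (adjusted p = 0.036). Gata2 differed by -0.25 (adjusted p = 0.0505) and Mitf, which drives mast cell protease genes, by 0.12 (adjusted p = 0.549). Mrgprb2, a receptor of mature connective tissue mast cells, was above the median of the negative sets in 0 arrays. Over all alternatives the falls numbered 2 to 6, with 6 under quantile normalization and with the filter on low values. Without Het-NMyc replicate 2 they were 2, and without Hom-Ctrl replicate 1, Het-Ctrl replicate 2 or Hom-NMyc replicate 1 the rises numbered 2.

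Markers of other cells that hold such granules were read beside the proteases. Of 7 basophil markers, 5 fell and 0 rose, with a median of -0.99. The list's mean log2 value was 9.26 to 9.54 in Ctrl and 8.68 to 8.98 in NMyc arrays, so the vectors did not overlap. Il3ra and Cd200r3 each fell by 0.99, Itga2 by 1.03 and Il4 by 1.11. Of 6 eosinophil markers, 4 fell, among them Epx (-2.01) and Prg2 (-1.99), which encode granule proteins, while Il5ra and Ccr3 were above background in 0 arrays. Of 13 T and NK cell markers, 2 fell (1 to 3 over the alternatives, and 1 without Hom-Ctrl replicate 1) and 0 rose, with means of 5.10 to 5.29 in Ctrl and 4.97 to 5.17 in NMyc arrays. The NK receptors Ncr1, Klrb1c, Klrd1 and Klrk1 were above the median of the negative sets in 0 of 14 arrays, and of the 13 only Nkg7 passed the 95th percentile. The part of these cell types in the protease values was not tested.

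**Figure D4:**
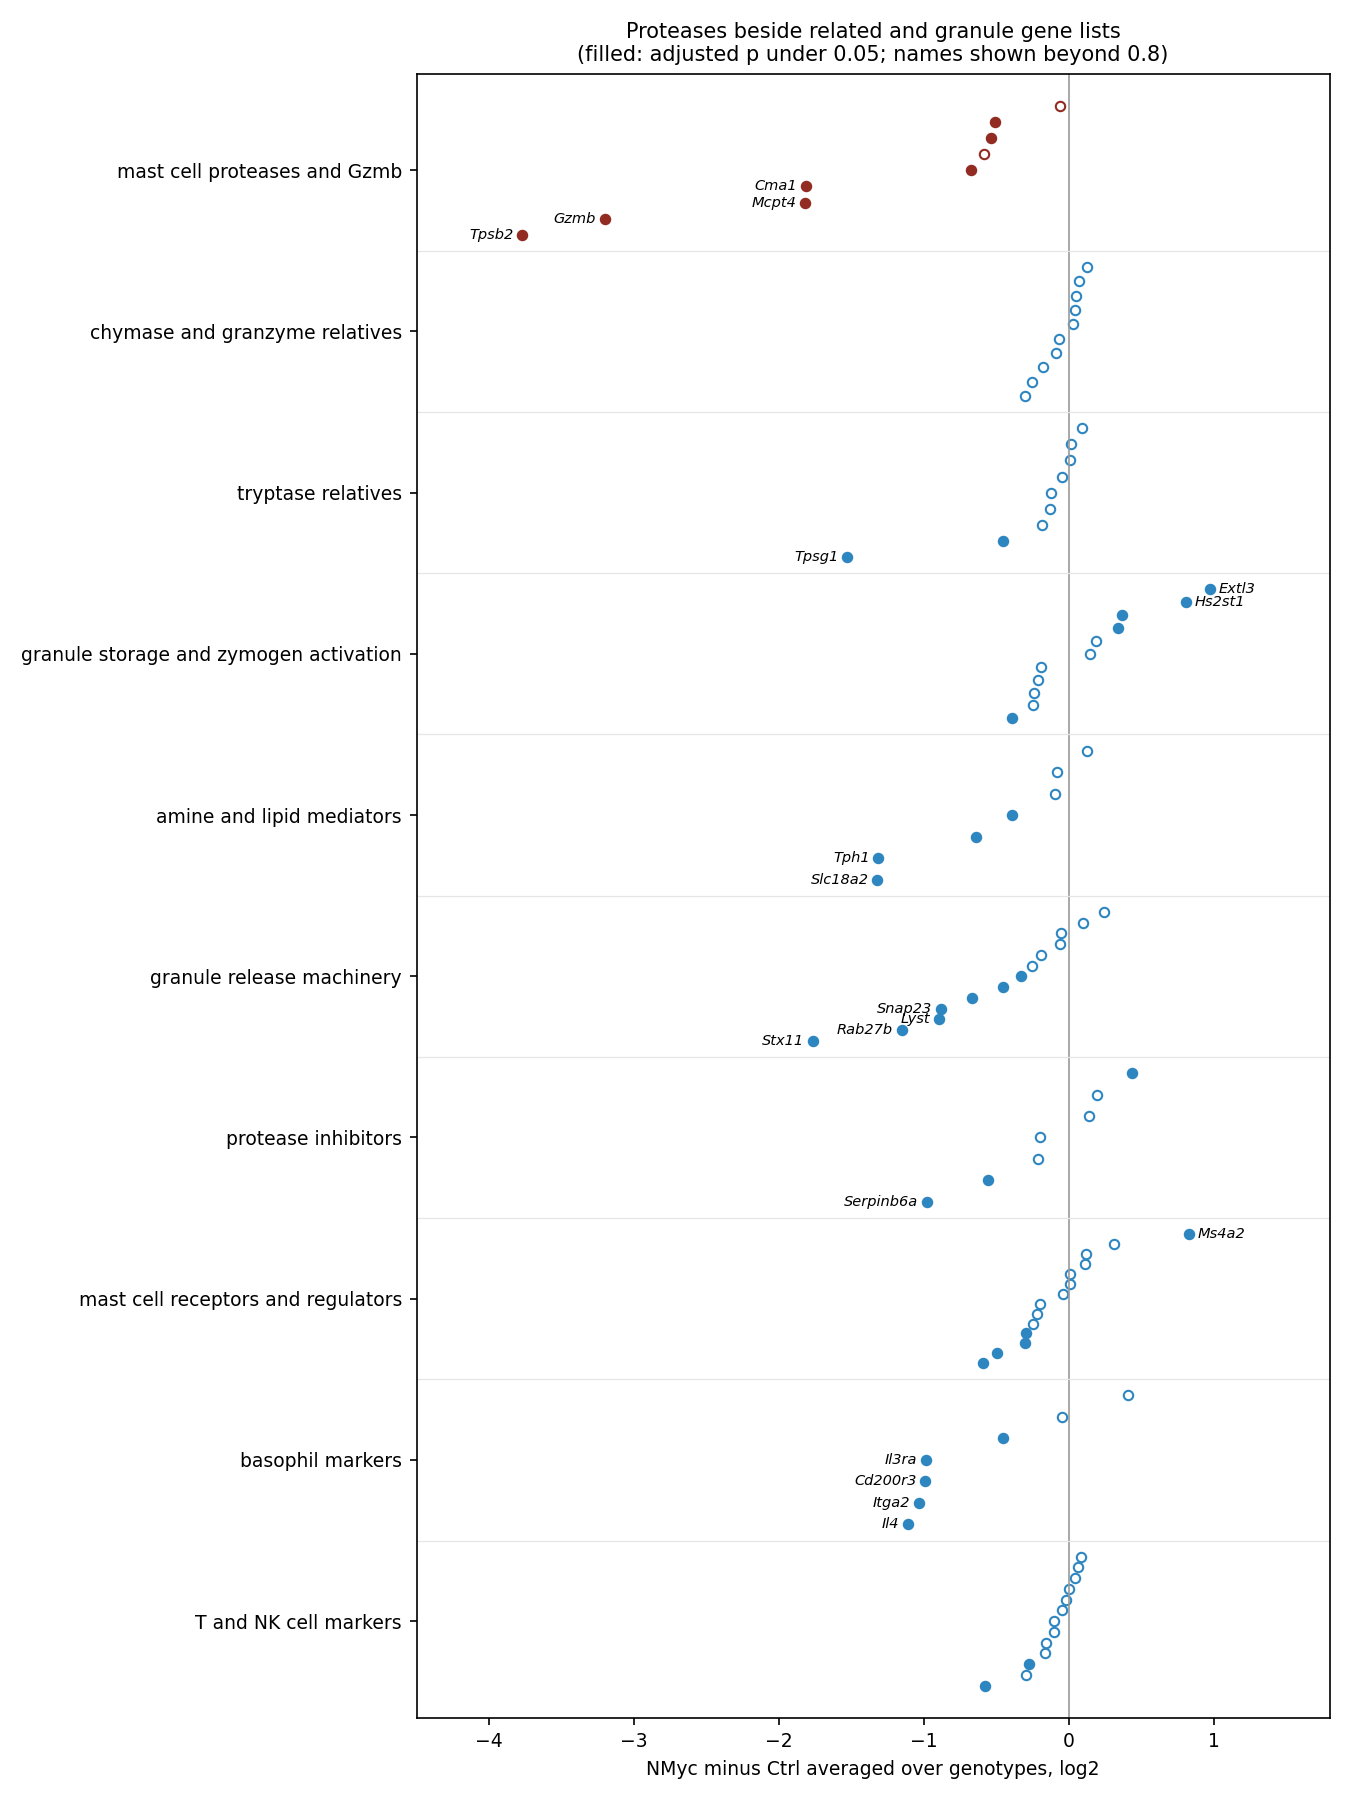
Each point is a gene, placed by NMyc minus Ctrl averaged over the genotypes on the log2 scale, in rows for the 9 proteases (red) and 9 related lists (blue), and filled where the adjusted p was under 0.05. Names are given beyond 0.8 in either direction. The proteases reach -3.77, and genes of granule storage lie on both sides. The relatives of the chymases and granzymes lie near 0, but 9 of the 10 passed the 95th percentile of the negative sets in no array.

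In Hom-Ctrl cells some mast cell and granule genes were called, as were markers of other cells, while 0 of the 9 proteases were. Of the 80 distinct genes in the related mast cell, basophil and granule lists, 10 were higher and 2 lower in Hom-Ctrl than in WT-Ctrl, with a median of 0.07, beside 2.03% of all probe sets higher and 1.88% lower. Ms4a2 was higher by 1.10, Slc18a2 by 1.03, Cd200r3 by 0.81, Tpsg1 by 0.80, Fcer1a by 0.66 and Gata2 by 0.61. F2r was higher by 0.98, Hs6st1 by 0.96, and Ext1 and Serpinb6b each by 0.84. Of 14 mast cell receptors and regulators, 3 were called higher and 11 were not called, with a median of 0.04. Lyst was lower by 1.06 and Il6ra by 1.16. Among markers of other cells, 3 of 12 for neutrophils were lower, Ltf (-1.42), Mmp8 (-1.13) and Cebpe (-0.68). So were 1 of 8 for monocytes and macrophages, Mrc1 (-2.81), and 1 of 6 for eosinophils, Siglecf (-1.05). Of 13 T and NK cell markers only Nkg7 (1.02) was called, as higher, while the median of that list was -0.10. The part of these other cells in the mast cell values was not tested. Without Hom-Ctrl replicate 1, 6 listed genes were higher and 1 lower, where 2.73% of all probe sets were called, with Ms4a2 at 1.40 and Fcer1a at 0.85. Without Hom-Ctrl replicate 2, 0 listed genes and 0.446% of all probe sets were called, with Ms4a2 at 0.80, Slc18a2 at 0.89, Tpsg1 at 0.83, Cd200r3 at 0.78, Fcer1a at 0.47 and Il6ra at -1.26. Of the 6 other markers, 4 were called without replicate 1 and 2, Ltf (-1.16) and Siglecf (-1.30), without replicate 2. Among the 8 proteases other than Mcpt1, the Hom-Ctrl minus WT-Ctrl differences ran from -0.30 for Tpsab1 to 0.61 for Gzmb, and 0 passed.

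The genes whose course over the 14 arrays was most like that of each protease were found by the root mean square of the difference between their centred log2 values. For Tpsb2 they were Tmtc2 (0.316), Ppbp (0.417) and Serpinb10 (0.437), and the nearest other protease was Gzmb (0.385). For Gzmb they were Anpep (0.28), Tmtc2 (0.345) and Serpinb10 (0.356). Cma1 was nearest to Myadm (0.216), Nrip3 (0.222) and Stx11 (0.229), and Cpa3 to Ern1 (0.115), Ttc39b (0.129) and Adipor1 (0.139). Mcpt8 was nearest to Septin9 (0.0785), Sdf4 (0.0883) and Degs1 (0.0909). Tpsab1 was nearest to Slc2a6 (0.157), Casp12 (0.16) and Fhod1 (0.161), and Mcpt2 to H2-Ab1 (0.344), Sgk1 (0.349) and Sycp2 (0.362). For Mcpt4, with values under background in 7 arrays, they were Adamts6 (0.362), Slc2a3 (0.367) and Il18r1 (0.369). Of these genes, Sycp2 was not called with NMyc (-0.35, adjusted p = 0.151), and the others fell, from -0.32 in Fhod1 to -4.27 in Ppbp. The likeness mostly repeats the contrast of the vectors that all 14 arrays share.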

How the data were processed

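RNA of 14 HPC samples was amplified, labelled with biotin and hybridised to Affymetrix whole-transcript arrays, per the labels' protocols. The authors' deposited table holds log2 values of each probe set in each array. The submitters' processing notes name Affymetrix Expression Console. Which version, summary and normalization were used is not given in the sources used here. Normalization between arrays can remove a shift shared by most transcripts. That values are log2 was judged from their range (2.24 to 13.5). Array medians lay between 6.294 and 6.378, and no further scaling was applied.

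The 28846 probe sets include 6640 array controls, recognised by their IDs and left out. The wording fixed for the tests names only those beginning with AFFX (31), and that reading is among the alternatives. Symbols came from the platform annotation, updated through a RefSeq table of GRCm38.p6 (0 changed): 19572 tested probe sets had 1 symbol, 0 several, and 2634 were not listed. Of 171 listed symbols, 148 were measured. Where a symbol had several probe sets, the one with the highest mean was used.

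Limma 3.58.1 in R 4.3.3 fitted 6 group means to all 14 arrays (8 residual and 7.299 prior degrees of freedom) and tested 13 two-sided contrasts, after the same code was tested on simulated data. The genes named are the 9 members, the called and the best-known genes of 18 lists, the neighbours in gene order, and the 3 nearest by likeness. The members and lists were chosen with earlier results of these data known. Promoters were read from a RefSeq table, which held 6 of the 9 members. Alternatives were the filter on low values, quantile normalization, array weights, a trended prior, blocks, and leaving out each array.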

Additional observations from a re-analysis of the deposited data

How the results depend on the processing

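Of 32 NMyc differences (8 proteases without Mcpt1, averaged and in each genotype), 24 were called, and 18 of these were called in each of the 22 or 23 alternatives tested. None of the 24 changed sign. Mcpt2 in Hom, not called, turned to 0.0422 with only code runs 2 and 3 and without Hom-Ctrl replicate 1, and ran from -0.587 to 0.30 over the fits that each left out 1 array, with 0.30 without Hom-NMyc replicate 1. Leaving out 1 array gave 7 to 8 proteases called for the averaged effect, 5 to 8 in WT, 4 to 6 in Het and 3 to 6 in Hom, and 0 in each genotype comparison and difference of effects. In the contrast of Hom with the mean of the other genotypes it gave 0 to 1, and the count was 0 with only AFFX controls left out and with only code runs 2 and 3. Mcpt8 in WT missed the threshold when only the groups compared were fitted (adjusted p = 0.1). Quantile normalization moved the median of all probe sets from -0.02 to 0.01 and the calls from 7470 to 7400. It took Mcpt4 in Hom to adjusted p = 0.0567. The cause was not tested.

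Deviations from the group means correlated over 0.1 in 7 of 31 pairs with the same replicate number (-0.133 to 0.266). They did so in 9 of 28 pairs with the same code run (-0.0137 to 0.266). Across the vectors, replicate numbers did not pair the samples (-0.133 to 0.0268). Within a vector, pairs with the same number were all positive (0.0259 to 0.266). These also shared a code run, so number and run cannot be told apart there. Where a group held a single pair of arrays, their deviations were mirror images, so many values repeat, some with the sign changed. With the replicate number as a block, 8 proteases were called on average, with Mcpt2 at -0.80 (adjusted p = 0.0173). The number of arrays and the signal over background limit Mcpt1, Mcpt2, Mcpt4 and Tpsab1, of which 0 arrays passed the 95th percentile of the negative sets.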

Other observations

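Outside the mast cell genes, 3 of 12 neutrophil markers rose with NMyc on average and 9 fell (adjusted p at most 0.00148 in limma). Elane, Mpo and Prtn3, genes of primary granules, rose by 0.47, 0.51 and 0.44, although within Het 0 of the 12 rose. Ctsg, another primary granule gene, differed by 0.07 (adjusted p = 0.573). Ltf, Camp, Mmp8 and Mmp9, genes of later granules, changed by -2.02, -1.65, -1.26 and -3.055, and Ngp by -0.60. All 8 monocyte and macrophage markers fell on average, with a median of -1.49. Within genotypes 8 of them fell in WT, 7 in Het and 5 in Hom. All 5 megakaryocyte markers fell on average and within each genotype, with an averaged median of -1.68, among them Pf4 (-2.75). Of 4 erythroid markers 0 passed in either direction, and of 5 B cell markers 1 rose. Of 6 stem and progenitor markers, Cd34 (-0.97), Slamf1 (-1.55) and Meis1 (-1.29) fell.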
